A study of Mus musculus with 72 samples.

Results

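Loss of Gnb5 was examined in the cerebral cortex by setting the 6 libraries titled as Gnb5-/- cortex against the 6 titled as Gnb5+/+ cortex, which together are 12 of the 72 RNA-seq libraries of the study. Each library came from the whole cerebral cortex of 1 male mouse of 18 weeks, and the labels number the mice 1, 3, 5, 10, 12 and 14 (Gnb5-/-) and 7, 8, 15, 16, 17 and 18 (Gnb5+/+). Gnb5-/- animals lack exon 3 of Gnb5 in all cells from conception, on a C57BL/6J background per the methods, and the line was revived from cryopreserved sperm. No treatment was given to either group. Hippocampus and cerebellum of the same 12 mice were sequenced too, as were heart atria and ventricles. The tissue is bulk, so fewer cells of a type and less RNA per cell cannot be told apart in any of the values that follow. Whether the 6 mice of a genotype shared litters is not given in the labels, and p-values measure the spread between these mice.

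Gnb5 encodes the G protein subunit β5, the most divergent member of the Gβ family. In place of a Gγ subunit it binds a regulator of G protein signalling of the R7 class (Rgs6, Rgs7, Rgs9 or Rgs11), and the complex speeds the return of Gαi/o to its inactive state, which shortens signalling from inhibitory receptors to effectors such as GIRK potassium channels and adenylyl cyclases. In the retina the same complex with Rgs9 ends the light response of photoreceptors. Guca1b encodes a guanylate cyclase-activating protein, a calcium sensor best known from photoreceptors, where it controls the cyclase that restores cyclic GMP after light.

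The libraries held 29204390 to 43666511 reads assigned to genes, and the shallowest was that of Gnb5-/- mouse 14 (the other 11 held at least 38071290). A pair of Gnb5-/- libraries stood apart. Reads outside annotated genes made up 6.96% of the library of mouse 14 and 8.42% of that of mouse 3, against 13.2% to 15.7% in the other 10. In the library of mouse 14 the sixth of tested genes with the shortest exons had a median log2 ratio of 0.50 to the mean of the Gnb5+/+ libraries and the sixth with the longest exons one of -0.68. For mouse 3 the same medians were 0.23 and -0.37, and in the other 10 libraries they stayed between -0.05 and 0.07. The counts of called genes and the values that rest on these libraries are therefore given for 12 libraries and, where stated, again for the 10 without mice 14 and 3. Counting error is small at this depth for all but the lowest genes, and the intervals given below cover counting error only.

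**Figure D1:**
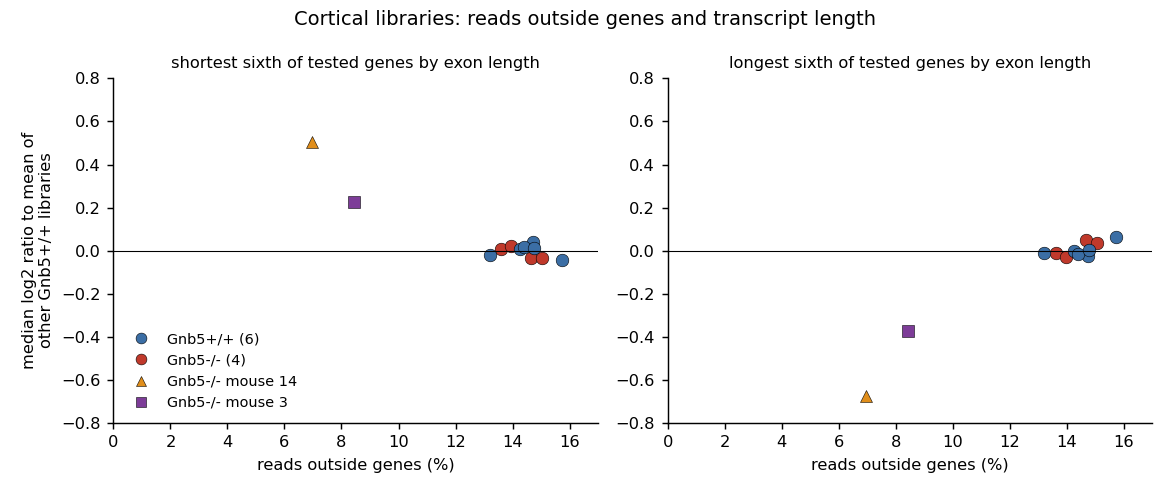
Each point is 1 cortical library, with the share of its reads outside genes on the x axis (%) and the median log2 ratio of its genes to the mean of the other Gnb5+/+ libraries on the y axis, for the shortest (left) and the longest (right) sixth of tested genes by exon length. Gnb5-/- mice 14 (triangle, 6.96%) and 3 (square, 8.42%) lie apart from the other 10 libraries (13.2% to 15.7%).

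The tissue label held against its layer markers. All 16 cortical layer markers were detected, their summed level was 2037 to 2250 CPM (counts brought to a common library size with the trimmed mean of M values, TMM) in the Gnb5+/+ libraries and 1434 to 2275 in the Gnb5-/- libraries, and retina and photoreceptor markers summed to at most 6.73 CPM in any library. Of 123 tested members of 16 marker lists (cell types and neighbouring tissues) edgeR called 0, and 11 had an unadjusted p below 0.05, where all tested genes had a share of 7.72%. Over the 10 libraries 0 of 125 were called and 14 lay below that value, beside 4.80% of all genes. The lowest sum of the layer markers was that of mouse 14. Mouse 14 also held more interneuron marker RNA (2556 CPM against 1204 to 1350 in Gnb5+/+) and less astrocyte marker RNA (3569 against 6422 to 7198), and mouse 3 had 4529 CPM of astrocyte markers. Choroid plexus markers varied widely in both genotypes, from 16.5 to 733 CPM in Gnb5-/- and from 17.9 to 297 in Gnb5+/+. Striatum markers, a list that holds Rgs9, summed to 878 to 1377 CPM in Gnb5-/- and 542 to 1204 in Gnb5+/+. Over the 10 libraries 10 of 10 of them had a positive log2 fold change, with 0 called. No list of cerebellar markers was made. The part of these marker differences in the results below was not tested.

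Gnb5 itself was expressed at 13.8 CPM (lowest), 15.2 (median) and 19.6 (highest) in the Gnb5-/- libraries and at 123, 136 and 148 CPM in the Gnb5+/+ libraries. The groups did not overlap, and every library went with its label. The mean fell from 136 ± 8.98 to 15.9 ± 2.09 CPM (SD, n = 6 per group), which left 11.7% of the wild-type level, or a change of -3.09 on the log2 scale with an SE of 0.10 (adjusted p = 4.3e-09, edgeR quasi-likelihood test with Benjamini-Hochberg adjustment over all tested genes). Between 425 and 749 reads were still counted on the gene in each Gnb5-/- library. The deposited values are totals over the whole gene at chr9:75306288-75345876 (GRCm38, plus strand), so which exons these reads cover was not analysed here. Gm19531, an antisense transcript inside the gene at chr9:75310335-75314871 (minus strand), read 1.19, 1.47 and 4.89 CPM in Gnb5-/- against 2.77, 3.24 and 3.66 in Gnb5+/+ (lowest, median, highest). It was not called over 12 libraries. Over the 10 libraries it was called, with a log2 fold change of -1.25 (SE 0.13, edgeR adjusted p = 0.000545). Since the strand setting of the counting is not given in the sources used here, its reads cannot be told from those of Gnb5. Of 17 other tested genes within 1 Mb of Gnb5, edgeR called 0 over the 12 libraries and 1, Gm19531, over the 10. Over the 10 libraries 0.142% of all tested genes were called. An unadjusted p below 0.05 was found for 3 of the 17 over the 12 libraries, beside 7.72% of all tested genes.

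Over the whole transcriptome 10 of 17967 tested genes passed an adjusted p of 0.05, or 0.0557%, and 1387 were below that value before adjustment. 4 genes were higher in Gnb5-/- cortex (0.0223% of those tested) and 6 were lower (0.0334%). The 4 that rose were Guca1b, Mns1, Prss45 and Gm7049, and the 6 that fell were Gnb5, Rpl29, Ppm1m, Poc1a, Bfsp2 and Gm10635. In all 10 the 6 knock-out libraries lay on one side of the 6 wild-type libraries, which was so for 0.573% of all tested genes (103 of 17967). DESeq2 called these 10 among 35 (0.142% of the genes it tested), and all 10 were called again without mice 14 and 3. The median log2 fold change of all tested genes was 0.00.

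**Figure D2:**
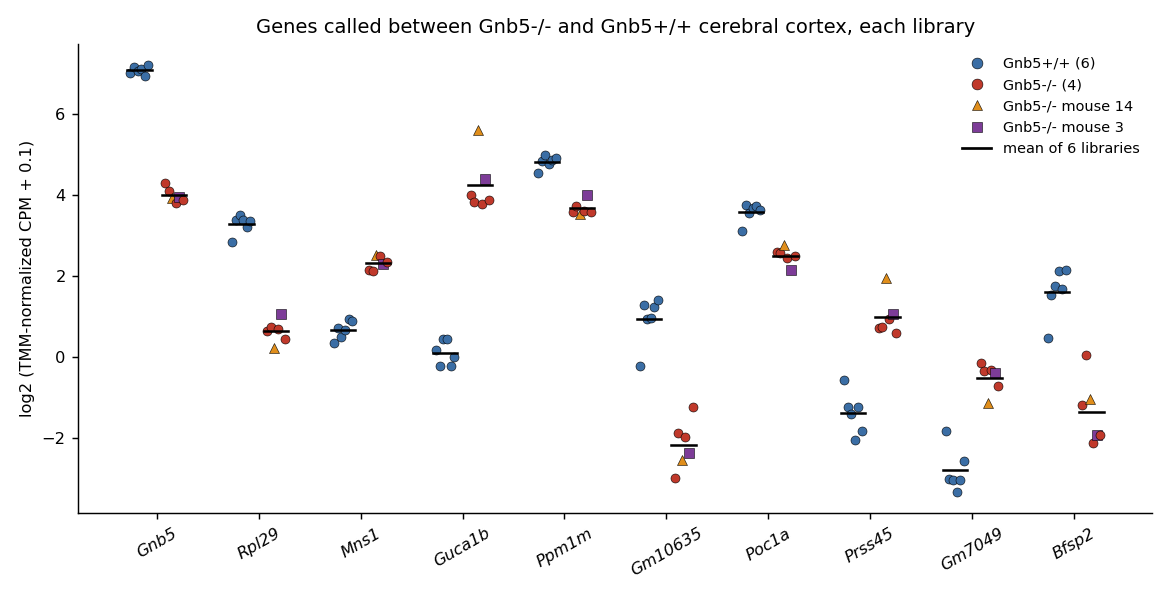
Level of the 10 called genes in each cortical library, on the y axis as log2 of TMM-normalized CPM plus 0.1. Circles are libraries of Gnb5+/+ (blue) and Gnb5-/- mice (red), the triangle and the square are Gnb5-/- mice 14 and 3, and the bar is the mean of 6 libraries. No gene has overlapping groups, and Guca1b is highest in mouse 14 (48.3 CPM).

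Guca1b rose most among the 10. It lies on another chromosome than Gnb5 (chr17:47385393-47392967, plus strand). Its level was 13.6 CPM (lowest), 15.4 (median) and 48.3 (highest) in Gnb5-/- cortex and 0.756, 0.962 and 1.27 CPM in Gnb5+/+ cortex. No wild-type library came near the lowest knock-out library, and the library of mouse 14 was far above the other 5 knock-outs. On the log2 scale the rise was 4.41 (SE 0.36, edgeR adjusted p = 9.89e-05) over 12 libraries and 3.86 (SE 0.14) over 10. Across the planned and added alternatives its adjusted p ran from 6.56e-176 to 0.00183, and the gene was called in each.

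Guca1a, the paralogue that encodes the other guanylate cyclase-activating protein of photoreceptors, is the neighbour of Guca1b and is transcribed towards it from the opposite strand (chr17:47394558-47400584, a gap of 1590 bases). It was read 19, 20, 81, 18, 25 and 7 times in the Gnb5-/- libraries of mice 10, 12, 14, 1, 3 and 5 and 0, 2, 2, 4, 1 and 1 times in the Gnb5+/+ libraries. No wild-type library reached the lowest knock-out library. At these counts it did not pass the filter on low values, so it received no test over the 12 libraries. With no filter the log2 fold change was 4.26 with an adjusted p of 0.0928 (edgeR), and DESeq2, which tests it, gave 2.89e-05; over all alternatives that tested it the adjusted p ran from 2.89e-05 to 0.461. Without strand, reads in which transcripts of these neighbours run into each other cannot be told apart. The 11 other tested genes within 300 kb of Guca1b had log2 fold changes between -0.25 and 0.24. Among them edgeR called 0, and 1 had an unadjusted p below 0.05, beside 7.72% of all tested genes. Over 10 libraries the 11 lay between -0.26 and 0.25, again with 0 called.

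Of the other called genes, 7 lie with Gnb5 on chromosome 9 and 1, Gm7049, on chromosome 13. Rpl29, which encodes a protein of the large ribosomal subunit, was at 1.06, 1.49 and 2.00 CPM in Gnb5-/- and at 7.14, 10.3 and 11.4 CPM in Gnb5+/+ (lowest, median, highest). The groups were far apart (-2.71 on the log2 scale, SE 0.17, adjusted p = 5.89e-06, and -2.75 over 10 libraries). Mns1, which encodes a structural protein of cilia and sperm flagella, was at 4.30, 4.90 and 5.60 CPM against 1.18, 1.51 and 1.83, or 1.70 higher on the log2 scale (SE 0.14, adjusted p = 9.89e-05, and 1.65 over 10 libraries). Ppm1m encodes a serine/threonine phosphatase of the PP2C family. It read 11.5, 12 and 16 CPM against 23.4, 28.7 and 31.6, or -1.15 on the log2 scale (SE 0.10, adjusted p = 0.000249, and -1.21 over 10 libraries). Poc1a, which encodes a centriole protein, was at 4.37, 5.67 and 6.77 CPM against 8.50, 12.5 and 13.5, or -1.09 (SE 0.13, adjusted p = 0.00561, and -1.09 over 10 libraries). The lowest wild-type library of Poc1a, Ppm1m and Rpl29 was in each case that of mouse 15.

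The remaining called genes were low. Prss45, which encodes a serine protease, was at 1.42, 1.70 and 3.76 CPM in Gnb5-/- and 0.143, 0.302 and 0.577 CPM in Gnb5+/+, or 2.71 higher on the log2 scale (SE 0.35, adjusted p = 0.00766). Bfsp2, which encodes phakinin, a filament protein of the lens, was at 0.129, 0.252 and 0.939 CPM against 1.29, 3.20 and 4.34, or -3.16 (SE 0.47, adjusted p = 0.0285). Gm10635 is a long intergenic non-coding RNA. It read 0.0261, 0.125 and 0.327 CPM against 0.761, 2.05 and 2.56, or -3.71 (SE 0.44, adjusted p = 0.00432). Over 10 libraries Prss45 stood at 2.37, Bfsp2 at -3.02 and Gm10635 at -3.46. The calls of Bfsp2 and Gm7049 were the least secure, since each was lost in 9 of 12 fits that left out 1 library (adjusted p up to 0.1005 and 0.117), while the other 8 were kept in all 12. Mns1 overlaps Tex9 and Bfsp2 overlaps 5830418P13Rik in the annotation, so reads in the shared stretch cannot be told apart without strand.

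Several of these genes have near-identical copies elsewhere in the genome, and the pairs are shown here because both members of a pair are among the genes that differed. Gm7049 and Gm11868 are processed pseudogenes of Me1 and Cyb5r4, and Gm5561 is a processed pseudogene of Rpl29. Over the aligned transcripts Gm7049 matched Me1 at 98.4% of 1716 positions, Gm11868 matched Cyb5r4 at 98% of 1485 and Gm5561 matched Rpl29 at 98.3% of 480. A stretch of 90 bases from each is printed 5′ to 3′ on the strand of the transcript (GRCm38 with GENCODE M21), and capitals mark the bases at which the members of a pair differ. The stretch of Rpl29 lies at chr9:106430313-106431098 (plus strand, spliced over an intron), that of Gm5561 at chr1:179520726-179520815 (minus), that of Me1 at chr9:86650886-86650975 (minus), that of Gm7049 at chr13:62813567-62813656 (plus), that of Cyb5r4 at chr9:87027033-87029525 (plus, spliced) and that of Gm11868 at chr4:18845531-18845620 (minus).
Rpl29: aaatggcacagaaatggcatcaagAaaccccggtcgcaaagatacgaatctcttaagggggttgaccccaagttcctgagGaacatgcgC
Gm5561: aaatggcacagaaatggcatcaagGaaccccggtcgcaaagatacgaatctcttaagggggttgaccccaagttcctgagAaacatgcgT
Me1: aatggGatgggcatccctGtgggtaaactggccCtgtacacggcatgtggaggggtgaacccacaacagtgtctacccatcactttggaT
Gm7049: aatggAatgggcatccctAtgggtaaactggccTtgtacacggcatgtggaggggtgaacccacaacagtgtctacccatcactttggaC
Cyb5r4: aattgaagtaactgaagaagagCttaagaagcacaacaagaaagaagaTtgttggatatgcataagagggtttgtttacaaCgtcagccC
Gm11868: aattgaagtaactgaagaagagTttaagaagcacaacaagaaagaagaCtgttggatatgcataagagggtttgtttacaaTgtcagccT

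In these stretches 3 bases separate Rpl29 from Gm5561, and 4 separate each of the other pairs. A read that falls between differing bases aligns to both copies and is not counted. In the aligned parts the counts therefore rest on reads that cover a differing base. The aligned part was 100% of the Gm7049 transcript but 49.8% of the Me1 transcript of 3292 bases. For Cyb5r4 it was 1485 positions beside a transcript of 3832 bases. Parents can thus also hold reads from outside it, and how many was not analysed. The values of all these genes are reported as uncertain. Over at least 200 bases at 85% identity or more, Rpl29 resembled 99 other annotated genes, Gm5561 94 and Cyb5r4 356.

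Gm7049 had 31, 28, 10, 27, 28 and 22 reads in the Gnb5-/- libraries of mice 10, 12, 14, 1, 3 and 5, and 7, 1, 1, 0, 1 and 3 reads in the Gnb5+/+ libraries of mice 15, 16, 17, 18, 7 and 8. Wild-type mouse 15 had the most reads of its group. Its rise was 3.49 on the log2 scale (SE 0.51, edgeR adjusted p = 0.0279), and 3.61 over 10 libraries. Its parent Me1, the cytosolic malic enzyme that supplies NADPH for lipid synthesis, lies on chromosome 9 and was read at 51.3, 60.1 and 123 CPM in Gnb5-/- against 43.2, 44.6 and 45.9 in Gnb5+/+. The highest knock-out library of Me1 was that of mouse 14, and the gene was not called over 12 libraries but was without mice 14 and 3 (log2 fold change 0.34, SE 0.05). Gm5561 had 1 read over the 6 Gnb5-/- libraries and 109 over the 6 Gnb5+/+ libraries, a wild-type to knock-out ratio of CPM of 101 with a 95% counting interval of 17.7 to 4004. It moved in the same direction as Rpl29, from which it differs by 8 bases.

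Genes of chromosome 9 were then set apart. Leaving out Gnb5, 7 of its 1050 tested genes were called (0.667%), against 2 of 16916 on the other chromosomes (0.0118%). They did not lie evenly along the chromosome. Within 5 Mb of Gnb5 2 of 76 tested genes were called (Mns1 at 2.84 Mb before the gene and Gm10635 at 4.10 Mb after it), between 5 and 20 Mb 0 of 221, between 20 and 40 Mb 5 of 454, and farther than 40 Mb 0 of 299 (edgeR). At an unadjusted p below 0.05 these windows held 15, 35, 63 and 22 genes, beside 7.72% of all tested genes. The group of 5 lay on the telomeric side, with Bfsp2 at 28.1 Mb, Ppm1m at 30.8 Mb, Poc1a at 30.9 Mb, Rpl29 at 31.1 Mb and Prss45 at 35.5 Mb after Gnb5. In the window from 28 to 33 Mb 4 of 91 tested genes were called. The median log2 fold change of all tested genes of the chromosome was -0.01, and 2 of the 7 were higher in Gnb5-/- and 5 lower.

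**Figure D3:**
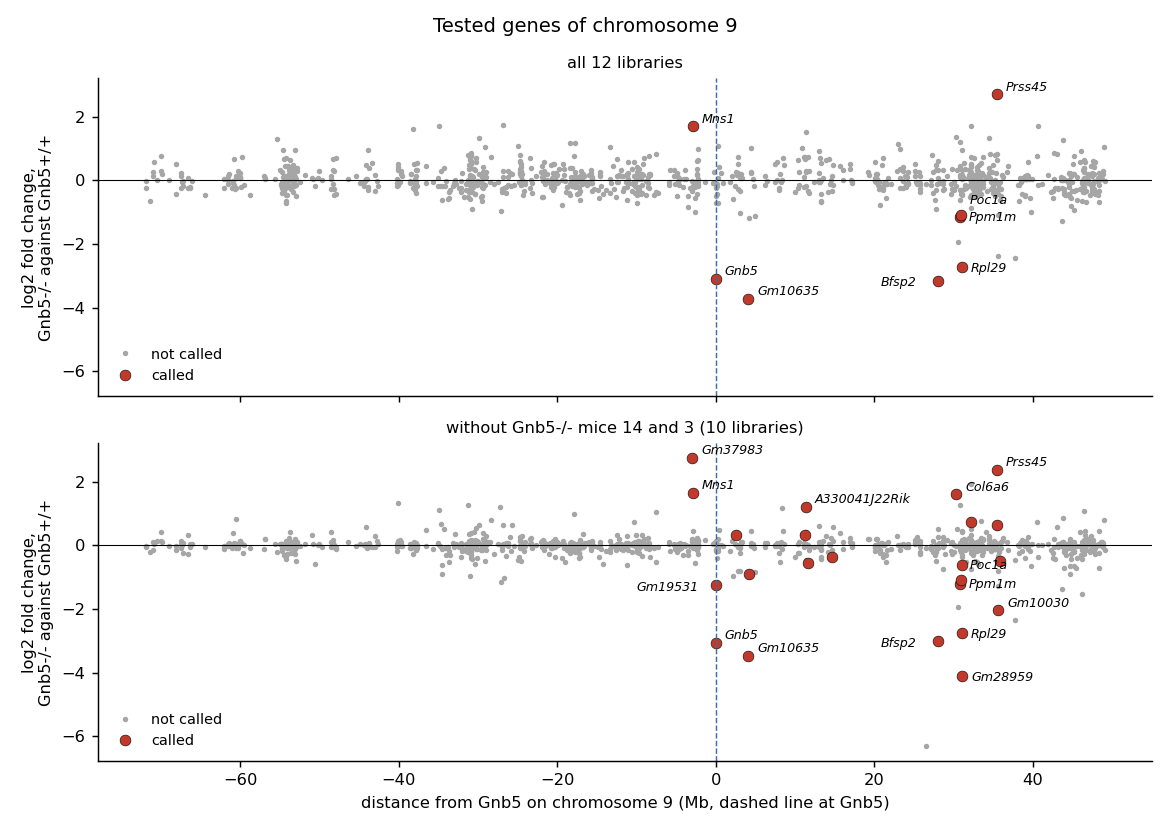
Tested genes of chromosome 9 by their distance from Gnb5 (x axis, Mb, with negative values before the gene) and their log2 fold change in Gnb5-/- against Gnb5+/+ cortex (y axis), over 12 libraries (top) and without Gnb5-/- mice 14 and 3 (bottom). Called genes are large red points, and none lies more than 40 Mb from Gnb5.

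Without the Gnb5-/- libraries of mice 14 and 3, 26 of 18269 tested genes were called (0.142%), 11 higher in Gnb5-/- (0.0602%) and 15 lower (0.0821%), and they included the 10. Before adjustment 876 genes were below 0.05. All 26 were also called by DESeq2 on the same 10 libraries, which called 55 (0.219%). In all 26 the 4 knock-out libraries and the 6 wild-type libraries did not overlap, which held for 1.05% of tested genes, and with mice 14 and 3 included 19 of the 26 still did not overlap. Chromosome 9 held 23 of them, of which 22 were other than Gnb5 (of 1074 tested, 2.05%), and the other chromosomes held 3 of 17194, namely Guca1b, Gm7049 and Gm5561. Of the 22, 6 of 79 tested genes lay within 5 Mb of Gnb5 and 4 of 224 between 5 and 20 Mb. Between 20 and 40 Mb lay 12 of 466, and farther away 0 of 305. Of these 305 genes 22 had an unadjusted p below 0.05, beside 4.80% of all tested genes. Among the 22 called genes 2 lay before Gnb5, 19 after it and 1 within it.

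Of the 16 genes that were added, those described next were chosen after their values were seen. Elovl5, the elongase of polyunsaturated fatty acids, was at 70.6, 104 and 105 CPM in Gnb5-/- against 75.4, 81.4 and 86.1 in Gnb5+/+ (lowest, median, highest of 6). The lowest knock-out value was that of a library left out, and without mice 14 and 3 the log2 fold change was 0.32 (SE 0.05). Cyb5r4, a cytochrome b5 reductase, was lower, with 24.9, 27.9 and 44.7 CPM against 30.2, 41.6 and 42.3, and a log2 fold change over 10 libraries of -0.56 (SE 0.09). Its highest knock-out library was that of mouse 14 and its lowest wild-type library that of mouse 15.

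Of the collagen genes on the chromosome, Col12a1 was at 5.17, 13.1 and 16.4 CPM in Gnb5-/- and 21.5, 27.5 and 28.9 in Gnb5+/+, with no overlap and a log2 fold change over 10 libraries of -0.89 (SE 0.10). Col6a6 went the other way, with 1.62, 3.85 and 5.34 CPM against 1.00, 1.12 and 2.78 and a log2 fold change of 1.61 (SE 0.25). Zmynd10, needed to assemble the dynein arms of motile cilia, was at 6.20, 7.43 and 8.54 CPM against 3.71, 4.23 and 5.96, and rose by 0.73 on the log2 scale (SE 0.12). Tmie, part of the transduction channel complex of hair cells, was at 6.52, 7.57 and 8.63 CPM against 3.92, 4.69 and 6.09 and rose by 0.64 (SE 0.11). Both had non-overlapping groups over all 12 libraries, and both were highest among the wild types in mouse 15. Tmie overlaps Als2cl in the annotation.

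Morf4l1, which encodes a chromodomain protein of histone acetyltransferase complexes, changed by -0.35 (SE 0.06) and the hydrolase gene Abhd14a by -0.61 (SE 0.08). Others among the added genes were non-coding or antisense transcripts of low level, with log2 fold changes of -4.09 for Gm28959, -2.04 for Gm10030, 1.22 for A330041J22Rik and 2.75 for Gm37983. Of these Gm28959, Gm10030 and A330041J22Rik overlap or lie antisense to another gene (Abhd14b, Rtp3 and Me1), and reads in the shared stretch cannot be assigned without strand.

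Wild-type mouse 15 was seen after the values were examined to lie towards the knock-outs for many of these genes, so its place was measured. For 25 of the 26 genes the log2 value (CPM plus 0.1) of every wild-type library was placed on a line from the mean of the other 5 wild-type libraries (0%) to the mean of the 6 knock-out libraries (100%). Over the 17 of these on chromosome 9 that lie more than 4 Mb from Gnb5, a boundary also set after seeing the values, the library of mouse 15 was the wild-type library nearest to the knock-outs in 16. Its median place was 41.3% of the way (8.10% to 109%), and it lay towards the knock-outs in 17 of 17. The other wild-type libraries were nearest in 0 or 1 of the 17, with medians from -11.7% to -0.742%. Measured without Gnb5-/- mice 14 and 3, mouse 15 was again nearest in 16 of 17, with a median of 43.5%. For the 5 called genes within 4 Mb, namely Gnb5, Gm19531, Elovl5, Mns1 and Gm37983, mouse 15 was nearest in 0, and its Gnb5 level was 129 CPM, 2.72% of the way.

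**Figure D4:**
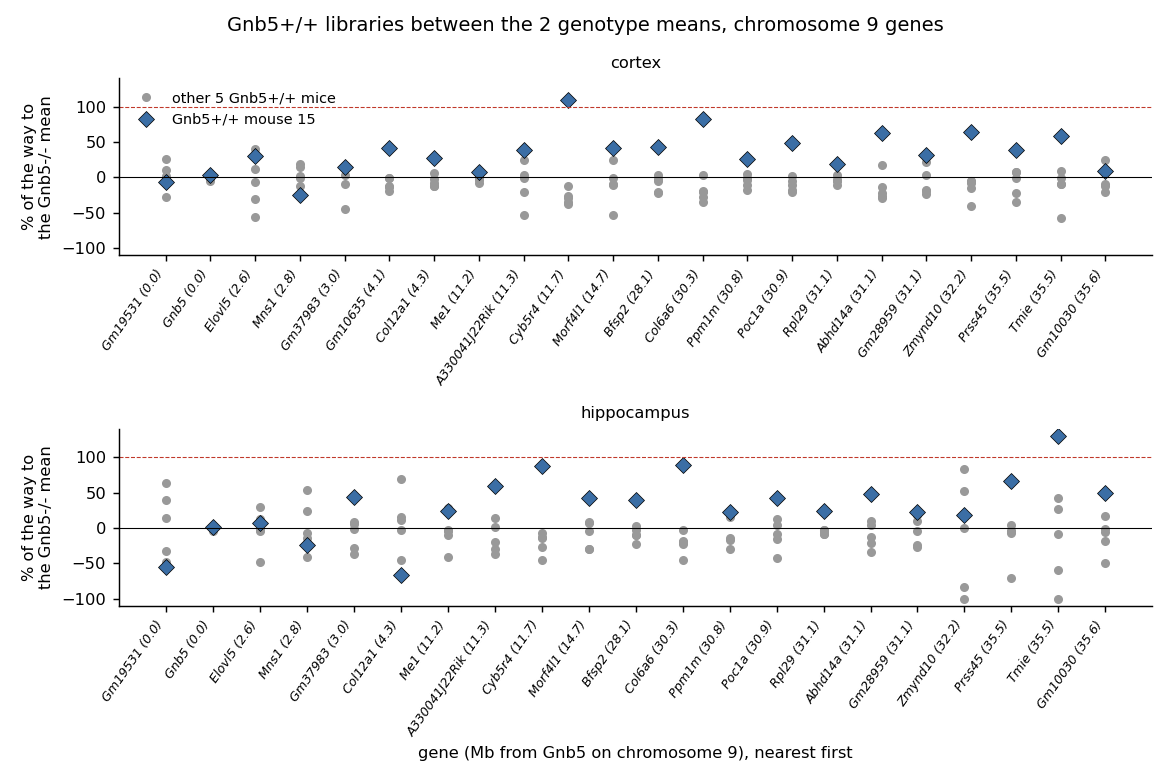
Place of each Gnb5+/+ library between the mean of the other Gnb5+/+ libraries (0%) and the mean of the Gnb5-/- libraries (100%, dashed) on the y axis, for 22 called genes of chromosome 9 ordered by distance from Gnb5 (in parentheses, Mb), in cortex (top) and, where tested, in hippocampus (bottom); values beyond the axis are drawn at its edge. Diamonds are mouse 15, which in the cortex lies towards the knock-outs in all 17 genes beyond 4 Mb, and grey points are the other 5 mice.

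The same held in other tissue of the same mouse. In the hippocampus mouse 15 was the nearest wild type in 12 of the 16 distant genes tested there, with a median of 42.2% of the way, and in the cerebellum in 10 of 15, with a median of 33.8% (34.8% without a cerebellar library that is described with the cerebellum). The 3 regions are separate libraries of the same animal, and the genes were chosen by their cortical calls. The cortical library of mouse 15 had 14.7% of its reads outside genes, within the range of the other wild types. The cause of the place of mouse 15 was not tested. Among the cortical wild types its blood marker sum was the highest, at 67.9 CPM against a lowest of 51.0.

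Without the wild-type library of mouse 15, 20 of 18106 tested genes were called (0.11%), 15 of them on chromosome 9. Leaving out mice 14, 3 and 15 together gave 36 calls among 18198 tested genes (0.198%), 30 on chromosome 9 and 6 elsewhere, and these included all 26. The 10 added were Ppib, Col6a4, Filip1, Rrp9, D030055H07Rik, Gpr62 and Gm38150 on chromosome 9 and the processed pseudogenes Gm11868, Oaz2-ps and Gm8210 on other chromosomes. The parents of these pseudogenes, Cyb5r4, Oaz2 and Rpl29, all lie on chromosome 9. They were chosen after their values were seen, and none was called over the 12 libraries, where all 3 had an adjusted p of 0.48.

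Gm11868 was counted 304, 352, 122, 366, 548 and 382 times in the Gnb5-/- libraries of mice 10, 12, 14, 1, 3 and 5. In the Gnb5+/+ libraries it was counted 131 times in mouse 15 and 3, 1, 1, 0 and 1 times in mice 16, 17, 18, 7 and 8. The 6 knock-outs and mouse 15 thus held reads of a pseudogene that was all but unread in the other 5 mice. Oaz2-ps showed the same order, with 18 to 78 reads in Gnb5-/-, 29 in mouse 15 and 0 to 2 in the others, and so did Gm8210, with 19 to 53 reads in Gnb5-/-, 35 in mouse 15 and 0 to 1 in the others. In the hippocampus the level of Gm11868 was 3.98 CPM in mouse 15 and at most 0.0695 in the other wild types. For Col6a4, a collagen gene of chromosome 9, mouse 15 had 59 reads beside 60 to 85 in Gnb5-/- and 110 to 495 in the other wild types. Gm8210 matched Rpl29 at 99.4% of its aligned positions, and it matched Gm13841 on chromosome 5 at 100% of 483 bases. No base within its transcript tells Gm8210 from that copy, so which reads gave its counts cannot be told. Oaz2-ps matched Oaz2 at 93.6%, so its counts too depend on the bases that differ.

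Of the brain genes that the study names 8 are given here, besides Guca1b and Guca1a above. For Guca1b the study reported a rise in cortex, hippocampus and cerebellum, and for Guca1a one in the hippocampus. The study reported Ntrk3 and Cacna2d4 as changed in the cortex, Grin2a, Gnai2 and Kcnj2 in the cerebellum and Hes5 and Sox6 in the hippocampus. For Synpo it gave a trend in the hippocampus. In the cortex edgeR called 0 of the 8 in either set of libraries. At an unadjusted p below 0.05 there were 2 over 12 libraries, beside 7.72% of all tested genes, and 4 over 10, beside 4.80%. Grin2a, which encodes an NMDA receptor subunit, had a log2 fold change of -0.20 (SE 0.10) over 12 libraries and -0.08 over 10. Synpo, which encodes an actin-associated protein of dendritic spines, stood at -0.29 (SE 0.14) and -0.12. Gnai2, a Gαi subunit gene on chromosome 9, stood at 0.00 and 0.03, and Sox6, a transcription factor gene, at -0.20 and -0.01.

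The other 4 were Ntrk3, Hes5, Kcnj2 and Cacna2d4. Ntrk3, the receptor of neurotrophin-3, was at 58.6, 238 and 245 CPM in Gnb5-/- and 262, 277 and 289 in Gnb5+/+, with no overlap and its lowest value in mouse 14. It stood at -0.50 (SE 0.27, edgeR adjusted p = 0.48), and at -0.19 (SE 0.04, adjusted p = 0.116) without mice 14 and 3, where DESeq2 gave 0.00105. Over all alternatives its adjusted p ran from 0.00105 to 1. Hes5, a Notch effector, read 9.35, 11 and 18.4 CPM against 5.50, 7.55 and 9.56, or 0.68 (SE 0.18, adjusted p = 0.48), and 0.45 over 10 libraries. Kcnj2, an inward rectifier potassium channel gene, stood at -0.40 (SE 0.14) and -0.24. Cacna2d4, an auxiliary subunit gene of voltage-gated calcium channels, stood at 0.32 (SE 0.21) and 0.57 (SE 0.13, adjusted p = 0.318), where DESeq2 gave 0.0347 (0.0347 to 1 over all alternatives).

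The partners of Gβ5 did not pass the test. Of the 9 tested genes of the R7-RGS complex 1, Gnb5 itself, fell and 8 did not pass, and the median log2 fold change of the list was -0.21 over 12 libraries and 0.01 over 10. Rgs7, an R7 member of many brain neurons, was at 72.1, 92.3 and 95.2 CPM in Gnb5-/- and 86.4, 90.1 and 96.4 in Gnb5+/+ (-0.03 on the log2 scale, SE 0.08, and 0.02 over 10 libraries). Rgs6 stood at -0.28 (SE 0.17) and -0.07, Rgs11 at -0.23 (SE 0.21) and 0.01, and Rgs9 at 0.12 (SE 0.23) and 0.16. The membrane anchor Rgs7bp stood at -0.01 (SE 0.09) and 0.01, and the orphan receptor Gpr158, which recruits Rgs7 to the membrane, at -0.11 (SE 0.12) and 0.06. These values are of RNA, and the counts used here hold no protein levels. By western blot the study reported that Gnb5 protein was absent and that Rgs7 protein was strongly lowered in Gnb5-/- brain.

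Of the 3 other Gβ genes tested edgeR called 0, with 1 at an unadjusted p below 0.05, beside 7.72% of all tested genes. Gnb1 read 609 to 736 CPM in Gnb5-/- and 606 to 667 in Gnb5+/+ (log2 fold change 0.03, SE 0.07), Gnb2 stood at 0.04 (SE 0.08) and Gnb4 at 0.21 (SE 0.08, adjusted p = 0.48). Over 10 libraries these were -0.03, -0.05 and 0.18. Gnb3, the Gβ of cone photoreceptors and ON bipolar cells, was barely read, at 0.0517 to 0.148 CPM in Gnb5-/- and 0.184 to 0.348 in Gnb5+/+. Its groups did not overlap, it failed the filter over 12 libraries, and over 10 libraries it was not called. Of 13 tested Gα genes 0 were called by edgeR over 12 libraries, with 0 at an unadjusted p below 0.05, and their median was 0.00. Gnao1, which encodes Gαo, stood at -0.18 (SE 0.15) over 12 libraries and 0.00 over 10.

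Downstream of the complex, 0 of 4 GIRK channel genes, 0 of 8 adenylyl cyclases and 0 of 24 Gαi/o-coupled receptors were called by edgeR in 12 libraries or in 10, and 0 in each list had an unadjusted p below 0.05 over the 12. Over the 10 libraries 1 GIRK gene, 0 adenylyl cyclases and 2 receptors had one. Their medians were -0.01, -0.18 and -0.18 over 12 libraries and 0.03, -0.03 and -0.02 over 10. Kcnj6, which encodes GIRK2, was at 2.20 to 25.3 CPM in Gnb5-/- and 24.5 to 32.2 in Gnb5+/+, with its lowest value in mouse 14, and stood at -0.65 (SE 0.45) and -0.19. Kcnj3 and Kcnj9, which encode the other main neuronal GIRK subunits, stood at 0.13 (SE 0.09) and -0.16 (SE 0.12) over 12 libraries and at 0.09 and -0.03 over 10. The GABA-B receptor gene Gabbr2 stood at -0.47 (SE 0.35) over 12 libraries and -0.11 over 10.

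Among 17 tested neuronal calcium sensor and guanylate cyclase genes 1, Guca1b, rose and 16 did not pass, with a list median of 0.01. The abundant sensors Hpcal4, Ncald, Vsnl1 and Ncs1 stood between -0.10 and 0.12 over 12 libraries. Of 20 tested phototransduction and lens genes 2 fell and 18 did not pass, with a median of 0.00. The 2 were Gnb5, which is the deleted gene, and Bfsp2 of chromosome 9, whose call was lost in 9 of 12 fits without 1 library. That Gnb5 and Guca1b change was known before the lists were made. Over all tested genes 0.0557% were called. The other lists of neuronal signalling had 0 calls by edgeR over 12 libraries or over 10. At an unadjusted p below 0.05 they held 2 of 87 tested members over 12 libraries, beside 7.72% of all tested genes, and 10 of 87 over 10 libraries, beside 4.80%. They held 17 calcium channel subunits, 8 neurotrophins and receptors, 18 ionotropic glutamate receptors, 12 GABA-A receptors, 20 genes of presynaptic release and 12 Notch effector and glial fate genes. Over 12 libraries the calcium channel list had a median of -0.29, and over 10 libraries one of -0.05. Cacna1e, as an example, was at 238 to 540 CPM in Gnb5-/- and 489 to 574 in Gnb5+/+. The Notch effector and glial fate genes had a median of 0.06.

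Immediate early genes, which neurons transcribe after activity, lay lower in Gnb5-/- cortex in most members without a call. Of the 17 tested 15 had a negative log2 fold change over 12 libraries and 16 over 10, the medians were -0.34 and -0.42 beside 0.00 for all genes, and 3 and 6 members had an unadjusted p below 0.05, beside 7.72% and 4.80% of all genes. Egr3 was at 116, 134 and 159 CPM in Gnb5-/- and 155, 187 and 242 in Gnb5+/+ (log2 fold change -0.48, SE 0.12, adjusted p = 0.48, edgeR, and -0.48 over 10 libraries). The groups overlapped only at their edges. Arc was at 105, 197 and 259 CPM against 82.0, 299 and 527, and Egr1 at 222, 281 and 437 against 289, 352 and 450. The summed level of the list was 995 to 1265 CPM in Gnb5-/- and 891 to 2094 in Gnb5+/+, so the lowest wild-type library lay below every knock-out. Members measured in the same animals are not independent of each other.

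The hippocampus and cerebellum of the same mice were sequenced in separate libraries. The cerebellar library of Gnb5-/- mouse 12 stood apart, with 8.14% of its reads outside genes against 14.2% to 17.2% in the other 11 of that region, so the results of the cerebellum are also given without it, a choice made after seeing the data. In the hippocampus 30 of 17588 tested genes were called (0.171%) and in the cerebellum 12 of 17139 (0.07%). Without mouse 12 the cerebellum gave 59 of 17255 (0.342%). Of the 26 cortical genes found without mice 14 and 3, 24 could be tested in the hippocampus, where 20 were called and 24 had the sign they had in the cortex. 23 could be tested in the cerebellum, where 7 were called and 21 had the same sign, Mns1 and Tmie being the exceptions. Without mouse 12, 16 of these 23 were called and 21 had the same sign. These are the same animals, so the regions do not replicate the genotype. Gnb5 stood at -2.96 in the hippocampus and -2.85 in the cerebellum, and Guca1b at 3.60 and 3.94. Guca1b was at 11.6 ± 0.709 against 0.956 ± 0.219 CPM in the hippocampus and at 24.3 ± 7.79 against 1.59 ± 0.274 CPM in the cerebellum (SD, n = 6 per group). Mouse 12 was at 40.2 CPM there and the other 5 Gnb5-/- mice at 20.1 to 22.4, with a mean of 21.2 ± 0.883 CPM (SD, n = 5). Without it the log2 fold changes in the cerebellum were 3.74 for Guca1b and -2.82 for Gnb5.

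**Figure D5:**
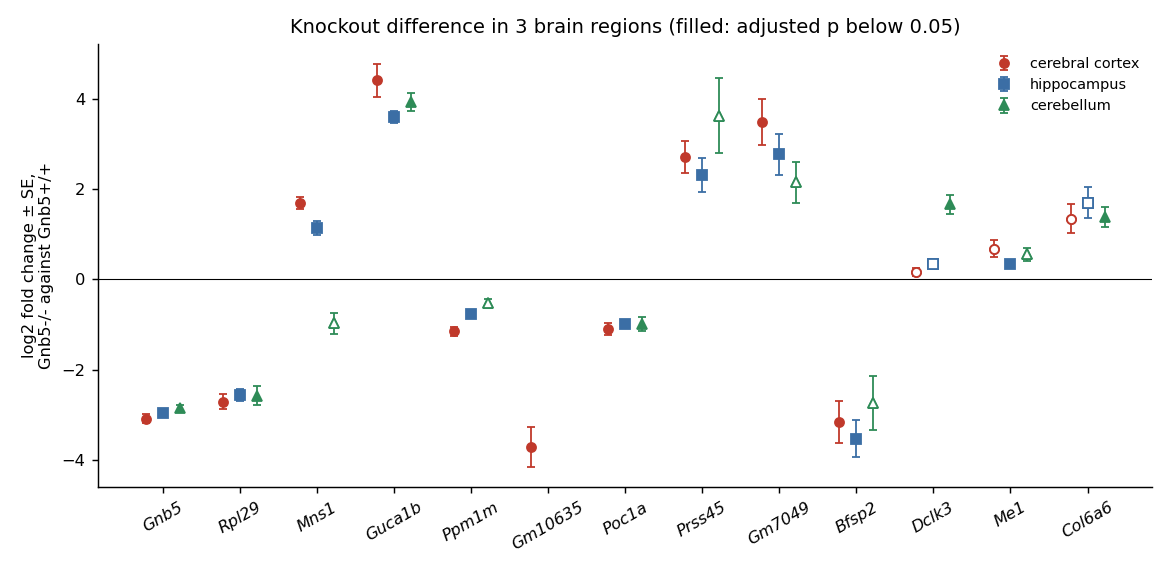
Log2 fold change of Gnb5-/- against Gnb5+/+ (y axis, bars ± 1 SE, 6 libraries per group) for named genes in cerebral cortex (circles), hippocampus (squares) and cerebellum (triangles); filled symbols have an adjusted p below 0.05. Mns1 is at 1.70 and 1.13 in the first 2 regions and at -0.98 in the cerebellum, and Dclk3 is called in the cerebellum.

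Differences between regions were tested in 1 model of the 36 brain libraries, with the mouse as a block. Between cortex and hippocampus 0 of 19388 genes differed in their knock-out effect by edgeR, 796 at an unadjusted p below 0.05, and DESeq2 also called 0. Between cortex and cerebellum 3 differed (0.0155%). Mns1 was raised in the cortex and in the hippocampus and stood at -0.98 in the cerebellum, where it was at 0.601 to 1.57 CPM in Gnb5-/- and 1.60 to 2.46 in Gnb5+/+, and the difference of the log2 fold changes was 2.66 (SE 0.24, adjusted p = 2.68e-06). Dclk3, which encodes a doublecortin-like kinase and also lies on chromosome 9, was at 44.0 to 57.6 CPM in Gnb5-/- cortex and 41.3 to 51.7 in Gnb5+/+ cortex. In the cerebellum it was at 7.40 to 10.1 CPM against 1.74 to 4.47, and the difference was -1.56 (SE 0.22, adjusted p = 0.00351). Ppm1m fell further in the cortex, by 0.67 on the log2 scale (SE 0.11, adjusted p = 0.0266). Without the cortical libraries of mice 14 and 3 the number of genes that differed between cortex and cerebellum was 6, and DESeq2 gave 20. Without the cerebellar library of mouse 12 it was 4, namely Mns1 (a difference of 2.88), Dclk3 (-1.50), Ppm1m (-0.59) and Cgnl1, which encodes a junction protein (-1.88). Leaving out all 3 libraries gave 15, which included these 4, and it gave 3 between cortex and hippocampus (Filip1, Syt12 and Actc1). Cgnl1 and these 3 are named because the counts are small, after their values were seen.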

How the data were processed

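Total RNA of 1 tissue per mouse was converted to stranded libraries and sequenced single-end. The deposited values are whole-number read counts per Ensembl gene, made by the authors, who per the methods trimmed adapters (cutadapt 1.8 in the submitters' processing notes), removed ribosomal and low-complexity reads, aligned to GRCm38 with STAR (2.5.3a) and counted with HTSeq (0.9.1). The strand setting of the counting is not given in the sources used here. Reads that align to several places are in a row of their own and enter no gene. The row of reads outside genes made up 6.96% to 15.7% of reads in cortex and, with the other summary rows, stayed out of library sizes and tests.

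Samples were grouped by their titles. Genes were kept with edgeR's filterByExpr (minimum count 10), scaled by TMM and tested with edgeR 4.0.16 (quasi-likelihood, R 4.3.3, limma 3.58.1), 6 against 6 libraries with genotype as the only term. A gene was called at an adjusted p under 0.05 over all tested genes. The study used the Wald test of DESeq2, which is an alternative here (1.42.0). Region differences were fitted over 36 brain libraries with the mouse as a block. Other alternatives were RLE size factors, no filter, a stricter filter, robust estimation, a replicate block, 1 surrogate variable (sva 3.50.0), the share of reads outside genes as covariate, each library left out, and mice 14 and 3 left out. Leaving out mouse 15 with them, DESeq2 without mice 14 and 3, and fits without the cerebellar library of mouse 12 were chosen after seeing the data. Scripts were tested on simulated data.

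Named genes are Gnb5 and Guca1b, those the study names for brain, all calls off chromosome 9, up to 15 calls on chromosome 9, called list members and up to 4 abundant uncalled members per pathway list. Members and lists were chosen with earlier results of these data known. Positions are from GENCODE M21, in which 53620 of 53715 gene IDs were found. Copies were found by aligning transcripts with BLAST+ 2.17.0 (at least 200 bases and 85% identity). Fold changes of low genes depend on the small prior count that edgeR adds by default. Same-numbered replicates did not deviate together (correlations from -0.17 to 0.03), so the numbers pair no samples. A few of the named genes are not reported here.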

Additional observations from a re-analysis of the deposited data

Results flagged for a closer look

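Of 74 groups of 6 libraries examined for a library far from the other 5, 13 held one. Chance flags about 1 in 20 unrelated groups. These groups share libraries and include called genes, so no excess can be read from the 13. In 8 of the 13 the library set apart was that of Gnb5-/- mouse 14. It had the fewest counts (29204390) and the highest summed CPM of interneuron (2556), thalamus (89.1) and blood markers (255). Its CPM of Guca1b (48.3), Guca1a (2.87), Hes5 (18.4) and Prss45 (3.76) was also the highest. This library also had the lowest share of reads outside genes (6.96%). Among the other knock-outs, Ppm1m stood high in mouse 3 (15.97 CPM) and Bfsp2 in mouse 12 (0.939 CPM). Among the wild types, mouse 16 had a pan-neuronal marker sum of 6953 CPM, and mouse 15 stood out in blood markers (67.9 CPM) and in Poc1a (8.50 CPM).

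The knock-out effect differed between cortex and cerebellum, by an interaction term, for Ppm1m (a difference of -0.67 in log2 fold change), Mns1 (2.66) and Dclk3 (-1.56). Ppm1m fell in the cortex and was not called in the cerebellum (-0.52) unless the cerebellar library of mouse 12, which stood apart, was left out (-0.58), Mns1 had opposite signs, and Dclk3 was called only in the cerebellum of the 3 regions (1.67).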

How the results depend on the processing

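The number of called genes was 10 (8 on chromosome 9, 2 elsewhere) and moved with the setting. DESeq2 gave 35 (26 and 9), the filter of 10 counts in every library 6 (5 and 1), the replicate block 6 (5 and 1), 1 surrogate variable 22 (20 and 2), 10 libraries without mice 14 and 3 26 (23 and 3), DESeq2 on those 10 libraries 55 (41 and 14), and 9 libraries, also without wild-type mouse 15, 36 (30 and 6). Leaving out 1 library gave 8 to 22 calls, 7 to 19 on chromosome 9 and 1 to 5 elsewhere. The highest counts came without Gnb5-/- mouse 14 (22) and without Gnb5+/+ mouse 15 (20, 5 of them elsewhere). RLE size factors, no filter, robust estimation and the covariate of reads outside genes gave 10, 14, 10 and 12. The cause was not tested. The replicate numbers pair no samples, and under that block Poc1a, Bfsp2, Prss45 and Gm7049 lost the call. The block leaves fewer degrees of freedom. Bfsp2 and Gm7049 lost it in 9 of 12 fits without 1 library. Between cortex and cerebellum 3 genes differed, 6 without the cortical libraries of mice 14 and 3, 15 when the cerebellar library of mouse 12 was left out too, and 20 by DESeq2. Between cortex and hippocampus leaving out these 3 libraries gave 3 where it had been 0.

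Some small log2 fold changes that were never called changed sign. With 1 surrogate variable, the covariate of reads outside genes, 10 libraries, DESeq2 on 10 libraries and 9 libraries, in this order, Rgs7 stood at 0.0412, 0.0383, 0.0187, 0.0199 and 0.0399, Gnb1 at -0.0275, -0.0338, -0.0331, -0.0319 and -0.025, Gnb2 at -0.0134, -0.0568, -0.0479, -0.0465 and -0.0415, and Rgs11 at 0.038, 0.0349, 0.0052, 0.0061 and 0.0083. Gnai2 stood at -0.0099 by DESeq2, -0.0101 with RLE size factors and -0.0168 with the block. Leaving out 1 library gave -0.0663 to 0.0786 for Gnai2, -0.0534 to 0.0136 for Rgs7, -0.0309 to 0.26 for Rgs9, -0.0133 to 0.0513 for Gnb1 and -0.0182 to 0.0773 for Gnb2. Depth limits genes of few reads: Guca1a did not pass the filter, and Gnb3 and Gm5561 passed it only over fewer libraries.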

Other observations

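Outside chromosome 9, DESeq2 on the 10 libraries without mice 14 and 3 called 14 genes. The 3 described here were picked from them after their values were seen and were not called by edgeR. Rhoq, a small GTPase gene, was at 53.4, 55.8 and 61.5 CPM in Gnb5-/- and 40.9, 44.4 and 48.2 in Gnb5+/+ (lowest, median, highest of 6), with a log2 fold change by edgeR over the 10 libraries of 0.27 (SE 0.05, adjusted p = 0.116). Plcb4, a phospholipase C that acts downstream of Gαq, was at 44.6, 63.6 and 67.7 CPM against 72.6, 74.7 and 85.3 (-0.24, SE 0.06). S100b, a calcium-binding protein of astrocytes, was at 108, 113 and 327 CPM against 89.7, 97.4 and 101 (0.20, SE 0.05), with its highest value in mouse 14. In these 3 genes the knock-out and wild-type libraries did not overlap, which held for 0.573% of tested genes. Since they were picked from calls on 10 of the same libraries, the lack of overlap is no separate support.

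Cbln3, a gene of cerebellar granule cells, was at 0.496, 0.936 and 14.7 CPM in Gnb5-/- cortex and 0.525, 0.688 and 1.04 in Gnb5+/+ cortex, and Fat2, another such gene, at 0.248 to 7.78 CPM against 0.417 to 0.971. The high values were those of Gnb5-/- mice 1 and 3, and the other 4 knock-outs lay within or near the range of the wild types for both genes.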
